A study of Mus musculus with 8 samples.

Results

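The Notch receptors *Notch1*, *Notch2*, *Notch3* and *Notch4*, their ligands *Jag1*, *Jag2*, *Dll1* and *Dll4* and the target genes *Hes1* and *Hey1* were followed in the postnatal mouse uterus after deletion of *Ezh2*. All 10 genes were found by symbol among the 27179 genes counted, and all 10 passed the filter on low counts that kept 16658 genes. RNA was taken from whole uteri at postnatal day 10 (PD10), 4 from control mice and 4 from *Ezh2 Amhr2*-Cre cKO mice, with 1 library each. Both genotypes carried the floxed *Ezh2* allele (Ezh2 f/f), the controls without Cre and the cKO mice with Cre from *Amhr2* (Ezh2 f/f; Acre), on a C57BL/6/129SvEv background. *Amhr2*-Cre is known to act in cells derived from the mesenchyme of the female reproductive tract, so that a cKO uterus also holds cells that did not express Cre.

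Notch receptors are membrane proteins that are bound by Jagged or Delta-like ligands on a neighbouring cell. Binding lets ADAM proteases and then gamma-secretase cut the receptor, and the freed intracellular part enters the nucleus, where it joins the DNA-binding protein RBPJ and switches on genes such as *Hes1* and *Hey1*. The pathway is known for choosing between cell fates in epithelia, for sprouting and arterial identity in blood vessels and for the maturation of the mural cells around them. A change in a bulk level can come from fewer cells of a type or from less RNA per cell, and these cannot be told apart here.

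Between 25287141 and 36685807 reads per library were counted on genes. The 10 Notch genes had from 82 counts (*Dll1* in control replicate 3) to 4854 counts (*Notch3* in cKO replicate 3) in a library, which is a counting error of 11.04% to 1.44%. Levels are given as CPM, which are counts scaled to library size with edgeR's TMM method. *Ezh2*, the targeted gene, had a mean level of 45.0 ± 8.70 CPM in the controls and of 36.8 ± 4.41 CPM in the cKO mice (SD, n = 4 each), with overlap and an adjusted p of 0.247 in edgeR's test. That count takes in the whole gene and cells without Cre. For the same mouse model the paper reports recombination of the floxed allele in cKO uteri and lower *Ezh2* mRNA there. It also reports weaker EZH2 staining in stromal cells of the uterus, though not in its epithelium. All markers of stroma, smooth muscle and epithelium that were listed were detected in every library. Fat markers set 3 cKO libraries apart. The 9 genes (*Adipoq*, *Fabp4* and others, of which *Lep*, *Plin1* and *Ucp1* were at 0 in some libraries) summed to 93.5, 218.0 and 96.6 CPM for cKO replicates 1 to 3, against 2.73 CPM for replicate 4 and 1.65 to 3.75 CPM for the controls. The part of this difference in the values below was not tested beyond the fits without single libraries, a fit on cKO replicate 4 alone and a fit with the fat markers as a covariate. In the covariate fit, too, genotype rests largely on cKO replicate 4. Its fat score, a mean log2 level of the markers, was -1.96, near the controls (-2.16 to -1.38). In cKO replicates 1 to 3 the score was 1.82 to 2.89, so that score and genotype cannot be told apart in them.

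None (0) of the 10 Notch genes passed an adjusted p of 0.05 in edgeR's quasi-likelihood test, where 5.34% of all genes tested did (2.62% higher and 2.71% lower in cKO uteri). Without adjustment, *Jag2* and *Notch3* had a p under 0.05, which is 2 of 10 genes, against 21.2% of all genes. limma-voom called 0 of the 10, against 5.02% of all genes, and DESeq2 called 1, *Jag2*, against 9.04% of all genes. For each of the 10 genes the libraries of the genotypes overlapped, whereas 12.3% of all genes tested had no overlap. The log2 fold change (cKO against control) was above 0 in 9 of the 10 and below 0 in *Hes1*, with a median of 0.17 against 0.00 for all genes tested, of which 50.1% were above 0. With the fat score as a covariate, or with cKO replicate 4 as the only cKO library, *Notch4*, *Jag1*, *Dll1* and *Dll4* were below 0 and *Hes1* above. Both fits rest largely on cKO replicate 4, so that they are not separate checks. Of the cell type markers summed further on, 11 of 12 endothelium, 8 of 8 epithelium, 8 of 9 smooth muscle and 5 of 7 stroma markers were also above 0, against 1 of 7 mural and 2 of 5 macrophage markers. The 95% confidence intervals lay within 2-fold in both directions for all 10, from 0.836 at the lowest (*Hes1*) to 1.61 at the highest (*Dll1*).

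**Figure D1:**
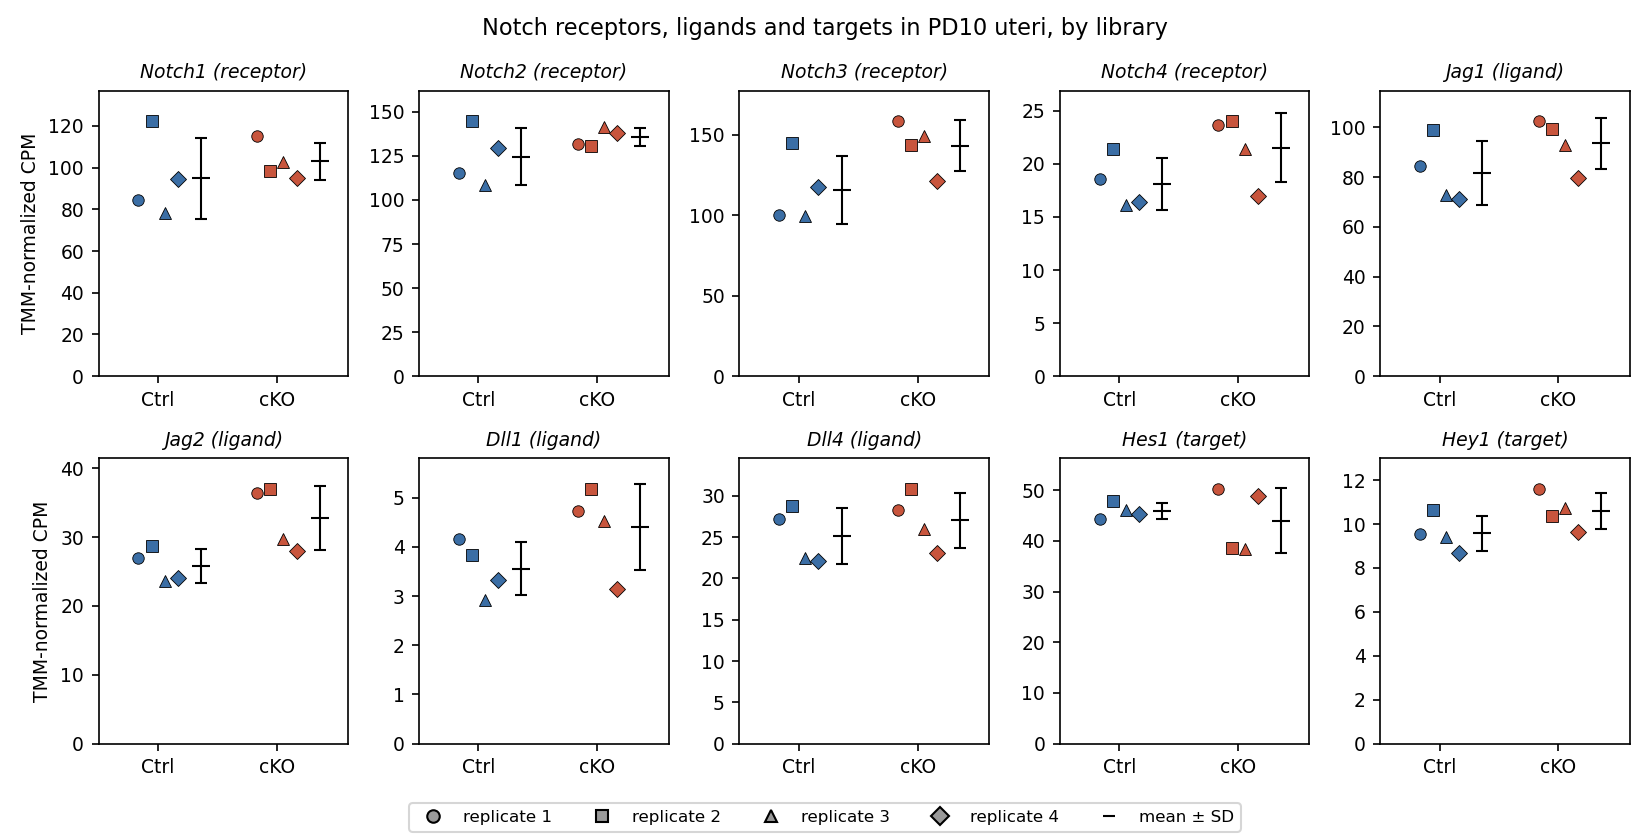
Level as TMM-normalized CPM (y axis, starting at 0) of the 10 Notch genes in each of the 4 control (blue) and 4 cKO (red) libraries, with marker shapes for the replicate number and the mean ± SD beside each group. The genotypes overlap in every panel, and cKO replicate 4 (diamond) lies inside the control range in 9 of the 10.

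The receptors differ in their usual cells. *Notch3* is the receptor of pericytes and vascular smooth muscle (Entrez 18131, chromosome 17 of GRCm38.p6 from 32120820 to 32166896). It was at 100.4, 144.9, 99.4 and 117.4 CPM in control replicates 1 to 4 and at 158.5, 143.7, 149.5 and 121.5 CPM in cKO replicates 1 to 4. Control replicate 2 lay between the cKO libraries, and cKO replicate 4 lay between the controls. The log2 fold change of *Notch3* was 0.31 ± 0.12 (standard error), with an edgeR adjusted p of 0.175, and the fold was 1.24 with a 95% confidence interval of 1.03 to 1.496. Without control replicate 2 it was 0.44 with an adjusted p of 0.0144 in edgeR, and over the 8 fits without 1 library it ranged from 0.25 to 0.44, with adjusted p-values up to 0.366. With cKO replicate 4 as the only cKO library it was 0.08, and with the fat score as a covariate 0.087.

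*Notch4*, a receptor found mainly on endothelium (Entrez 18132, chromosome 17 from 34564286 to 34588543), was at 18.6, 21.4, 16.1 and 16.4 CPM in the control replicates and at 23.7, 24.0, 21.4 and 17.0 CPM in the cKO replicates. All of cKO replicates 1 to 3 were above every control, replicate 3 only just, and replicate 4 was inside the control range. The fold was 1.19 (95% confidence interval 0.991 to 1.43, adjusted p = 0.260 by edgeR).

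*Notch1*, which acts in endothelium, epithelium and lymphocytes (Entrez 18128, chromosome 2 from 26457902 to 26503822), was at 84.3, 122.3, 78.1 and 94.4 CPM in the control replicates and at 115.3, 98.6, 102.6 and 95.2 CPM in the cKO replicates. *Notch2* (Entrez 18129, chromosome 3 from 98013538 to 98150367), a receptor of many mesenchymal and epithelial cells, was at 115.2, 144.8, 108.5 and 129.7 CPM in the control replicates and at 131.9, 130.8, 141.6 and 137.8 CPM in the cKO replicates. In both genes the highest library of all 8 was control replicate 2, and all cKO libraries lay within the control range. Their folds were 1.09 each, with 95% confidence intervals of 0.897 to 1.32 for *Notch1* and 0.964 to 1.23 for *Notch2*.

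Among the ligands, *Jag2* had the smallest p-value of the 10 genes. It encodes a Jagged ligand known from epithelia and vessels (Entrez 16450, chromosome 12 from 112907803 to 112929812). Its level was 26.9, 28.8, 23.6 and 24.05 CPM in the control replicates and 36.4, 37.05, 29.8 and 28.0 CPM in the cKO replicates. All of cKO replicates 1 to 3 were above every control, and cKO replicate 4 was below control replicate 2. The log2 fold change was 0.34 ± 0.10 (standard error), with an edgeR adjusted p of 0.0724, and the fold was 1.27 with a 95% confidence interval of 1.09 to 1.48. The adjusted p of *Jag2* was 0.0286 in DESeq2 and, in edgeR, 0.0201 without cKO replicate 4 and 0.0427 without control replicate 2. With a replicate block, which is only a shared number, it was 0.0128 in edgeR. Over the 8 fits without 1 library the log2 fold change ranged from 0.28 to 0.41 and the adjusted p reached 0.194. With cKO replicate 4 as the only cKO library the log2 fold change was 0.12, and with the fat score as a covariate it was 0.10.

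*Jag1*, the more abundant Jagged ligand (Entrez 16449, chromosome 2 from 137081451 to 137116520), was at 84.3, 98.9, 72.8 and 71.1 CPM in the control replicates and at 102.5, 99.4, 92.8 and 79.4 CPM in the cKO replicates. Control replicate 2 was above cKO replicates 3 and 4, control replicate 1 was above cKO replicate 4, and the fold was 1.14 (95% confidence interval 0.969 to 1.35, adjusted p = 0.333 by edgeR).

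*Dll4*, the ligand of endothelial tip cells (Entrez 54485, chromosome 2 from 119325784 to 119335666), was at 27.2, 28.8, 22.4 and 22.2 CPM in the control replicates and at 28.2, 30.9, 25.9 and 23.0 CPM in the cKO replicates, a fold of 1.08 (95% confidence interval 0.914 to 1.27). The genotypes overlapped over most of their range. *Dll1* (Entrez 13388, chromosome 17 from 15367354 to 15376932), a Delta-like ligand known from somites, intestine and marginal zone B cell niches, had the lowest level. It was at 4.16, 3.83, 2.93 and 3.32 CPM in the control replicates and at 4.74, 5.19, 4.53 and 3.15 CPM in the cKO replicates. As for *Jag2* and *Notch4*, cKO replicates 1 to 3 were above every control and replicate 4 was not, and the interval of its fold of 1.24 was the widest (0.949 to 1.61).

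The target genes encode transcriptional repressors of the basic helix-loop-helix class. *Hes1* (Entrez 15205, chromosome 16 from 30065357 to 30067796) was at 44.3, 48.0, 46.0 and 45.4 CPM in the control replicates, which lay close together, and at 50.3, 38.6, 38.3 and 48.9 CPM in the cKO replicates. The cKO libraries lay on both sides of the controls, a pair above every control and a pair below. The fold of *Hes1* was 0.958 (95% confidence interval 0.836 to 1.10). *Hey1*, a target in vessels and heart (Entrez 15213, chromosome 3 from 8663359 to 8667038), was at 9.56, 10.6, 9.42 and 8.68 CPM in the control replicates and at 11.6, 10.4, 10.7 and 9.63 CPM in the cKO replicates. Its fold was 1.11 (95% confidence interval 0.951 to 1.29), and the genotypes overlapped.

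The exact permutation test on single genes, two-sided on log2(CPM + 0.1), gave p-values from 0.0571 for *Jag2* and 0.0857 for *Notch3* to 0.486 for *Hes1*, where 4 mice against 4 cannot go below 0.0286. Some of the spread was shared between the genes. Control replicate 2 was the highest control in 9 of the 10 genes and cKO replicate 4 the lowest cKO library in 8 of them.

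**Figure D2:**
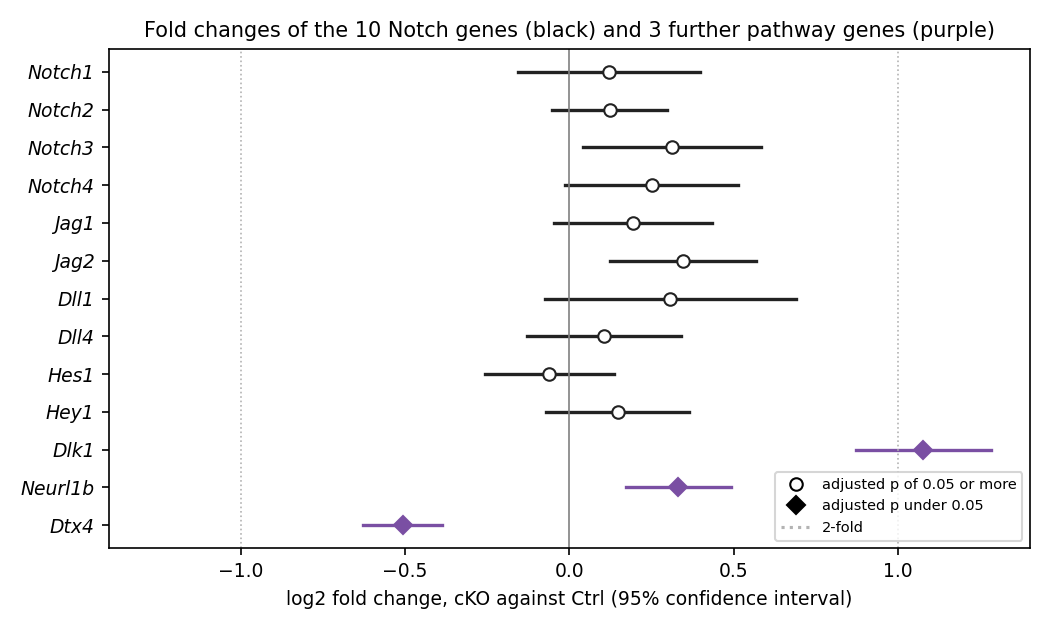
Log2 fold change of cKO against control (x axis) with its 95% confidence interval for the 10 Notch genes (black) and 3 further pathway genes (purple), from edgeR's quasi-likelihood fit, with dotted lines at 2-fold. Open circles mark adjusted p-values of 0.05 or more, as in all 10 Notch genes, and filled diamonds those under 0.05, and no interval of the 10 reaches 2-fold.

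Levels of different genes were set side by side as CPM per kilobase of exon, with exon lengths of the GENCODE annotation of GRCm38, as mean ± SD over the 8 libraries. On this scale *Hes1* was highest (22.1 ± 2.19), followed by *Notch3* (16.0 ± 2.82), *Jag1* (15.04 ± 2.13), *Notch2* (12.1 ± 1.16), *Notch1* (6.95 ± 1.03), *Dll4* (6.77 ± 0.846), *Jag2* (4.21 ± 0.726), *Hey1* (3.09 ± 0.284), *Notch4* (2.46 ± 0.401) and *Dll1* (0.944 ± 0.193). The order within a library was not fixed for all neighbours. *Notch3* was above *Jag1* in 6 of 8 libraries and *Notch1* above *Dll4* in 5 of 8, while each other gene was above the next in 8 of 8. With coding lengths, *Notch3* and *Jag1* changed places, as did *Jag2* and *Hey1*.

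By the same measure *Notch3* made up 39.6% to 45.7% of the summed receptor level of a library, *Notch2* 28.5% to 34.9%, *Notch1* 17.4% to 20.2% and *Notch4* 5.75% to 7.49%. *Jag1* made up 53.9% to 57.6% of the summed ligand level, *Dll4* 23.4% to 26.8%, *Jag2* 14.0% to 16.8% and *Dll1* 3.07% to 3.89%. Per exon length, *Notch3* had the highest receptor level and *Jag1* the highest ligand level in each of the 8 libraries. Per coding length, *Jag1* was still the highest ligand in 8 libraries, whereas *Notch3* was the highest receptor in 4 and *Notch2* in the other 4, of which 3 were controls. The shares themselves depend on the length used. Per coding length they were 32.6% to 38.1% for *Notch3*, 29.7% to 36.1% for *Notch2*, 23.4% to 26.8% for *Notch1* and 5.59% to 7.37% for *Notch4*. That of *Jag1* among the ligands was 49.9% to 53.6%.

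**Figure D3:**
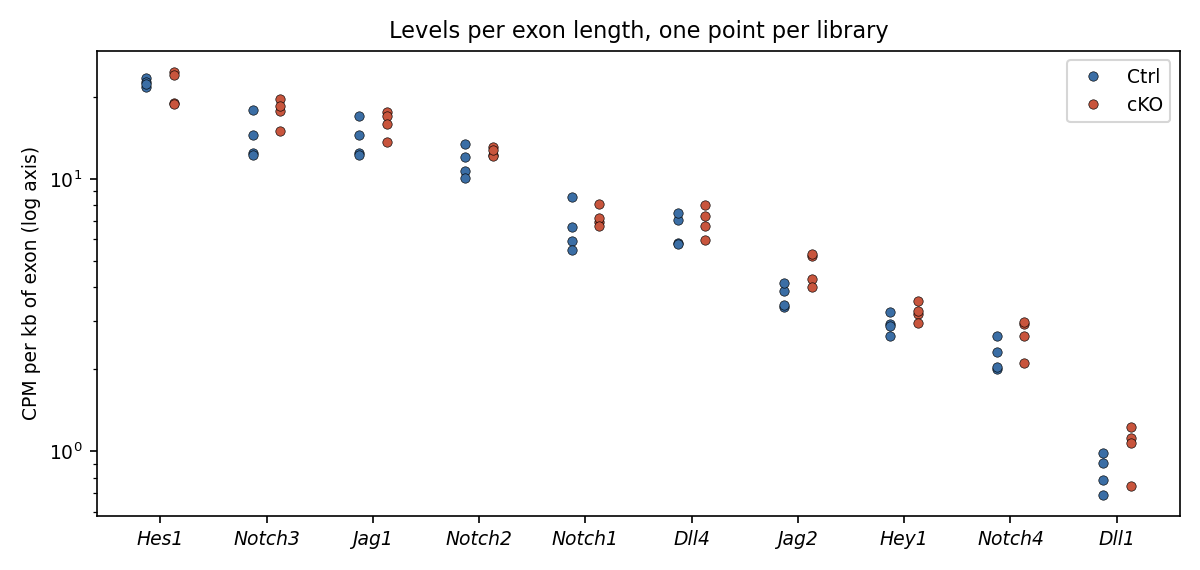
CPM per kilobase of exon (y axis, log scale) of the 10 Notch genes in order of their mean, with 1 point for each control (blue) and cKO (red) library. *Hes1*, *Notch3*, *Jag1* and *Notch2* form the upper range and *Dll1* lies apart at the bottom, in both genotypes.

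Of 49 other genes of the pathway, 43 passed the filter on low counts. The ligand-like genes *Dll3* and *Dlk2* and the target genes *Hes2*, *Hes3*, *Hes5* and *Hes7* did not. An adjusted p under 0.05 was found for 3 of the 43, with 2 higher and 1 lower in cKO uteri, which is 6.98% against 5.34% of all genes tested (2.62% higher, 2.71% lower). The median log2 fold change of the 43 was -0.02. The genotypes did not overlap in 8 of the 43, where 12.3% of all genes tested had no overlap. The 3 genes that passed were *Dlk1*, *Neurl1b* and *Dtx4*. Of those that did not, *Dner* (log2 fold change -0.58, edgeR adjusted p = 0.184) and *Dtx3* (0.43, edgeR adjusted p = 0.276) changed most, with overlap in both. *Dtx3* was called in edgeR without cKO replicate 4, where 1773 of 16549 genes were, and with a replicate block, where 1240 of 16658 were.

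*Dlk1*, an imprinted gene whose product resembles Delta ligands but lacks the domain that binds the receptor in the canonical way, and which is abundant in preadipocytes and in fetal tissues, rose. It was at 144.0, 150.1, 110.0 and 138.3 CPM in the control replicates and at 290.0, 285.0, 314.1 and 254.5 CPM in the cKO replicates. Each cKO library was above every control. The fold was 2.11 (95% confidence interval 1.83 to 2.43, edgeR adjusted p = 6.68e-05), so that *Dlk1* was the only gene of the 43 with a change over 2-fold, where 1.3% of all genes passed both thresholds. In cKO replicate 4, which had fat markers at the level of the controls, *Dlk1* was at 254.5 CPM, and with this library alone against the controls the log2 fold change was 0.92 with an adjusted p of 0.0704 by edgeR. With the fat score as a covariate, the log2 fold change of *Dlk1* was 0.95 with an edgeR adjusted p of 0.0102.

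*Dtx4*, a Deltex ubiquitin ligase that acts on Notch receptors in the cell's traffic, fell. Its level was 96.3, 98.8, 95.4 and 89.6 CPM in the control replicates and 65.1, 63.8, 69.96 and 68.5 CPM in the cKO replicates, without overlap. This is a fold of 0.704 (95% confidence interval 0.648 to 0.764, adjusted p = 0.000241 by edgeR), and the adjusted p stayed under 0.05 in each of the 8 fits without 1 library. With cKO replicate 4 as the only cKO library the log2 fold change of *Dtx4* was -0.46 with an edgeR adjusted p of 0.107. *Neurl1b*, a ubiquitin ligase that drives uptake of Notch ligands, rose from 42.5 ± 3.76 to 53.5 ± 3.40 CPM (SD, n = 4 each), with each cKO library above every control. The fold of *Neurl1b* was 1.26 (edgeR adjusted p = 0.0219). Leaving out control replicate 1, control replicate 3, cKO replicate 1 or cKO replicate 3 took the edgeR adjusted p to between 0.0594 and 0.0704, with log2 fold changes of 0.34, 0.28, 0.33 and 0.29 against 0.33 in the fit with all libraries. Adding the fat score as a covariate gave *Neurl1b* a log2 fold change of 0.25 (edgeR adjusted p = 0.515), and cKO replicate 4 alone gave 0.23 (edgeR adjusted p = 0.763).

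**Figure D4:**
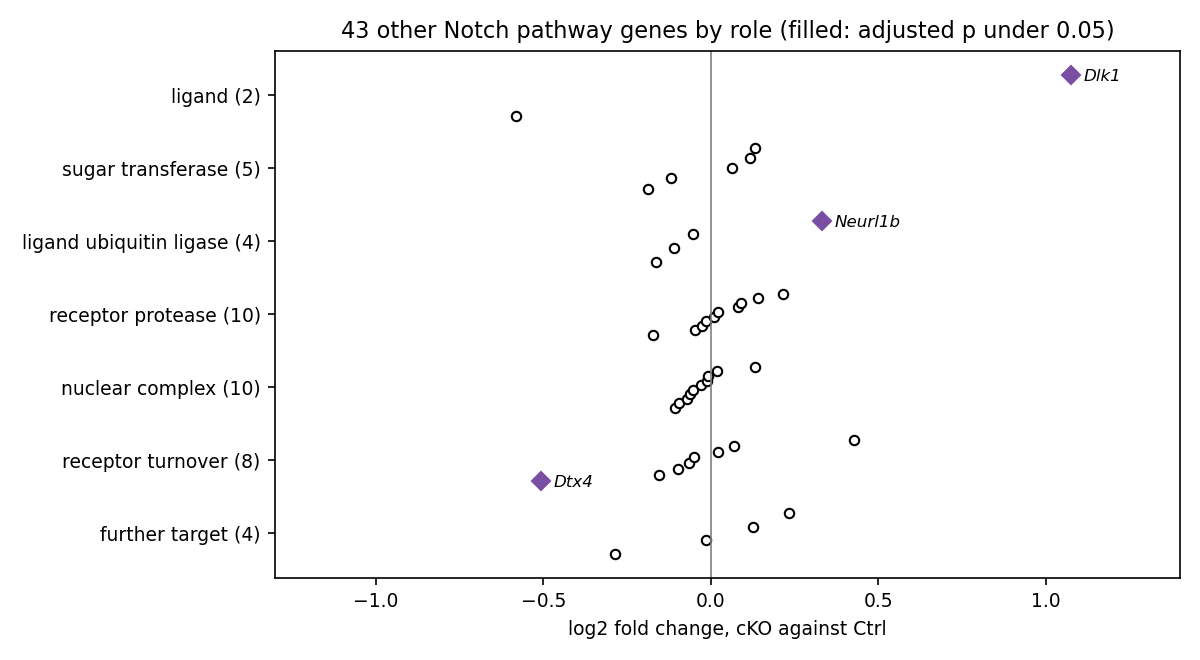
Log2 fold change of cKO against control (x axis) for the 43 other Notch pathway genes tested, grouped by role with the number of genes in brackets. Filled diamonds mark the 3 genes with an adjusted p under 0.05, which are *Dlk1*, *Neurl1b* and *Dtx4*, and open circles the other genes. Most open circles lie near 0, and *Dner* (-0.58) and *Dtx3* (0.43) lie farthest from it.

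Of the 10 genes of the ADAM proteases, furin and gamma-secretase, 0 passed an adjusted p of 0.05 in edgeR (5.34% of all genes) and 1 had an unadjusted p under 0.05 (21.2% of all genes), *Adam17* (log2 fold change -0.17, adjusted p = 0.0977 by edgeR). Of the 10 genes of the RBPJ complex with its coactivators and corepressors, 0 passed and 0 had an unadjusted p under 0.05. *Rbpj*, the DNA-binding partner of all Notch receptors, had mean levels of 152.2 ± 6.86 CPM (control) and 142.6 ± 7.05 CPM (cKO; SD, n = 4 each), with an edgeR adjusted p of 0.366. Of the 5 sugar transferases that modify the receptors, 0 passed, and *Pofut1* had the smallest p (log2 fold change -0.19, adjusted p = 0.0653 by edgeR). For *Adam17* and *Pofut1* every cKO library was below every control, and edgeR called both genes when cKO replicate 4 was left out, in a fit that called 1773 of 16549 genes, and in no other fit without 1 library. DESeq2, which called 9.04% of all genes, called 5 of the 43 with *Heyl* and *Pofut1* added, and limma-voom, which called 5.02% of all genes, called 3.

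Of the 4 further target genes that were tested, 0 passed an adjusted p of 0.05 in edgeR, against 5.34% of all genes, and 2 had an unadjusted p under 0.05, against 21.2%. *Nrarp*, a target whose product restrains Notch, averaged 15.6 ± 0.623 CPM (control) and 18.3 ± 1.53 CPM (cKO), and each cKO library was above every control, with an adjusted p of 0.123 by edgeR. *Heyl*, known from mural cells, averaged 72.1 ± 6.78 CPM (control) and 59.1 ± 5.80 CPM (cKO), and each cKO library was below every control, with an adjusted p of 0.0660 by edgeR. *Hey2* and *Hes6* had log2 fold changes of -0.02 and 0.13, with overlap between genotypes.

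Promoter sequence was looked at because Notch signals through RBPJ at DNA with the letters TGGGAA. The 250 bases before the RefSeq start (GRCm38.p6) were read from a RefSeq table for the 4 receptors and 4 ligands, in 9 promoters, since *Dll1* has 2 starts. *Hes1* and *Hey1* are not in it, so that no promoter of a target gene is among the 9. TGGGAA, searched on both strands, was in 0 of these 9 receptor and ligand promoters, against 21.6% of all 32851 promoters of this length, and the E-box CACGTG was likewise in 0 of the 9, against 6.0%. CpG dinucleotides in the 9 numbered 4 (*Notch4*) to 54 (*Jag2*), with a median of 17 against 6 for all promoters and 17 for the 51 promoters of the other pathway genes. The stretches of *Jag2* and of 1 start of *Dll1* lie within the RefSeq spans of the genes. Among the other pathway genes, TGGGAA was in 13 of 51 promoters. The stretches of *Hey2* and *Lfng* are shown 5′ to 3′ along each gene, since these genes hold the longer form CGTGGGAA, with TGGGAA or its reverse complement in capitals.
*Hey2* (chr10:30842960-30843015, minus strand): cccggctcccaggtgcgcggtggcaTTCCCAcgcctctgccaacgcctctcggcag
*Lfng* (chr5:140607181-140607263, plus strand): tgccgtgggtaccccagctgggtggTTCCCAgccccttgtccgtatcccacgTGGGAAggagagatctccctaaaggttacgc
The longer form is at the only place in *Hey2* and at the second place in *Lfng*, and 0.6% of all promoters hold it. Among further target genes, *Hes5* and *Hes7* hold TGGGAA as well, in stretches that lie within the RefSeq spans of the genes, and are not shown. *Lfng*, a sugar transferase gene and itself a Notch target, averaged 20.7 ± 1.07 CPM (control) and 22.6 ± 1.74 CPM (cKO), with an adjusted p of 0.350 by edgeR. *Hes5* averaged 0.128 CPM (control) and 0.169 CPM (cKO) and was, like *Hes7*, under the filter.

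Of the pathway genes that were higher in cKO uteri, *Dlk1* had 8 CpG and *Neurl1b* 36 CpG in the 250 bases before the start given in the table, and neither held TGGGAA. The RefSeq span of *Dlk1* begins before this stretch, at 109452485 on chromosome 12, so that the stretch lies within the annotated gene. *Pofut1*, which was not called, had 41 CpG. *Dtx4*, the called gene that fell, is not in the promoter table. For the called gene *Neurl1b*, the end of the 250 bases overlaps the first exon that GENCODE annotates. The 220 bases with 30 CpG that end before this exon are shown, 5′ to 3′ with each CpG in capitals.
*Neurl1b* (chr17:26414609-26414828, plus strand): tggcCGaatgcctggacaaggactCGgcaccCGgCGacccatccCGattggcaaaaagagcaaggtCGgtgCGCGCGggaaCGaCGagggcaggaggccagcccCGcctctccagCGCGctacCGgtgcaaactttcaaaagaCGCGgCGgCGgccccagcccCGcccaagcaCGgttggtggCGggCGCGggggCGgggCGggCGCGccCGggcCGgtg

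Since these genes are unevenly spread over cell types, marker levels were summed per library. For none of 9 marker lists did the exact permutation test, two-sided on the log2 of the sum, give a p under 0.05, and the smallest it can give is 0.0286. The 12 endothelium markers (*Pecam1*, *Cdh5* and others) summed to between 926 and 1150 CPM (control) and between 945 and 1223 CPM (cKO), and 11 of the 12 had log2 fold changes above 0. The 8 epithelium markers summed to between 1212 and 1457 CPM (control) and between 1371 and 1684 CPM (cKO), and 8 of the 8 were above 0. The 7 mural markers summed to between 793 and 1108 CPM (control) and between 781 and 1013 CPM (cKO). Of these, 6 of 7 had log2 fold changes below 0 and *Higd1b*, at a low level, rose (fold 1.93, edgeR adjusted p = 0.0215), so that the log2 difference was -0.089 for the sum and 0.041 for the mean of the log2 levels. The 7 stroma markers summed to between 8162 and 10663 CPM in the controls, to between 12523 and 12622 CPM for cKO replicates 1 to 3 and to 9858 CPM for cKO replicate 4. Most of this sum was *Col3a1* (means of 6287 CPM for control and 8063 CPM for cKO, edgeR adjusted p = 0.0454) and *Col1a1* (1557 and 2054 CPM), and *Pdgfra* and *Hand2* had log2 fold changes below 0. The log2 difference was 0.32 for the stroma sum (exact permutation p = 0.0571) and 0.14 for the mean of the log2 levels (exact permutation p = 0.2). The 4 Schwann cell markers all had log2 fold changes above 0, with a mean log2 difference of 0.75 (exact permutation p = 0.0286), and *Sox10* rose (edgeR adjusted p = 0.0407). Of the 7 arterial endothelium markers, 5 had log2 fold changes above 0 and 2, *Nrp1* and *Efnb2*, below. Only *Sox17* was called, which is 1 of the 7 against 5.34% of all genes tested, and it rose (edgeR adjusted p = 0.0211). *Sox17* averaged 155.0 CPM (control) and 197.0 CPM (cKO), and which cells it came from was not tested. The arterial sum differed by 0.05 on the log2 scale (exact permutation p = 0.171). The part of these differences in the levels of the Notch genes was not tested beyond the ratios that follow.

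Relative to the endothelium markers the genotypes overlapped. *Notch4* was 1.79% ± 0.104 of the summed endothelium level in control and 1.91% ± 0.136 in cKO uteri (SD, n = 4 each, exact permutation p = 0.2). For *Dll4* these values were 2.48% ± 0.209 and 2.41% ± 0.150 (exact permutation p = 0.6), and for *Notch1* 9.30% ± 1.03 and 9.23% ± 1.03 (exact permutation p = 0.914).

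*Notch3* over the summed mural markers was 10.3%, 13.1%, 12.5% and 13.3% in the control replicates and 19.0%, 16.1%, 14.8% and 15.6% in the cKO replicates. Each cKO library, replicate 4 included, was above every control. The log2 difference was 0.41 (exact permutation p = 0.0286, the smallest possible, and 0.114 after Benjamini-Hochberg adjustment over the 4 ratios tested). Relative to the smooth muscle markers, taken as a mean of log2 levels, the log2 difference was 0.22 (exact permutation p = 0.114), and relative to the mean log2 of the mural markers 0.28 (exact permutation p = 0.0286). The ratio does not show which of its parts differed, and it is not a level per mural cell. The largest parts of the mural sum were *Abcc9* (means of 323.3 CPM for control and 296.3 CPM for cKO) and *Pdgfrb* (320.3 and 315.0 CPM). Whether these genes came from mural cells alone was not tested.

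**Figure D5:**
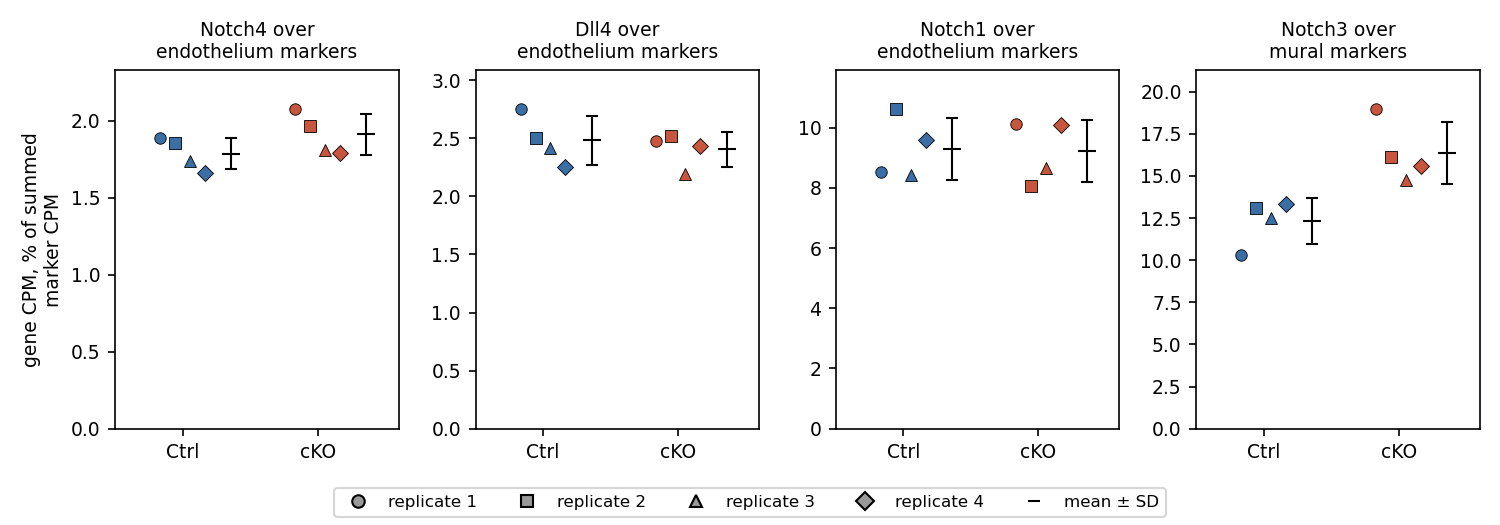
Level of *Notch4*, *Dll4* and *Notch1* as a percentage of the summed endothelium markers, and of *Notch3* as a percentage of the summed mural markers (y axes, starting at 0), in each control (blue) and cKO (red) library, with mean ± SD. The genotypes overlap in the endothelial ratios, and in the *Notch3* ratio the cKO libraries (14.8% to 19.0%) lie above the controls (10.3% to 13.3%).

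The genes nearest to *Jag2* in their pattern over the 8 libraries, among 14455 genes with a mean of at least 1 CPM, were *Adam15*, *Eml5* and *Ramp3*. The root mean square difference of their centred log2 levels from those of *Jag2* was 0.0537, 0.0542 and 0.0557, against a spread of *Jag2* itself of 0.226. Of the other Notch genes, *Notch4* stood nearest to *Jag2*, in place 43, and *Hes1* farthest, in place 9113. Nearest to *Notch3* were *Nfatc1*, *Eppk1* and the stromal collagen gene *Col1a1* (0.0668, 0.0726 and 0.0753, against a spread of 0.245), and of the other Notch genes *Notch1*, in place 55.

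Exons of *Notch1*, *Notch3*, *Dll1* and *Dll4* share bases with antisense genes in the GENCODE annotation, from 214 bases in *Dll4* to 1068 in *Notch1*. The libraries were made with a stranded kit, but the strand setting of the counting is not given in the sources used here, so that reads of these antisense genes may be part of the levels. *Notch2* shares 541 exon bases with *Gm42820* on the same strand, which no strand setting separates.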

How the data were processed

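Each of 8 uteri gave 1 RNA-seq library. The authors used Trimmomatic, HISAT2 (GRCm38) and featureCounts, and deposited raw counts per Entrez gene and library. Versions, annotation release, strand setting and handling of multi-mapped reads are not given in the sources used here. Only gene symbols were taken from their deposited edgeR comparison, which also holds p-values, log2 CPM and log2 fold changes and an F score. A table of the authors' normalized values with 8 columns was not used.

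The filter asked for a CPM over 0.2 in 4 or more libraries, and genes that passed were tested with edgeR 4.0.16 in R 4.3.3 (TMM, glmQLFit and glmQLFTest with robust = TRUE, prior count 0.125), with Benjamini-Hochberg adjustment over 16658 genes. The filter, TMM, robust = TRUE and the adjustment are stated in the paper's methods, which also ask for a fold change over 2, and the quasi-likelihood test and prior count are not stated there. The standard error is the size of a log2 fold change over the square root of its F score, and intervals use the t distribution with edgeR's degrees of freedom. CPM uses TMM library sizes. A gene with 0 counts may be at up to 3 counts, or 0.0818 to 0.119 CPM by library totals without TMM. The errors in percent given for counts and the limit for 0 counts cover counting error only, whereas the fold intervals also take in spread between libraries. Permutation tests used all 70 arrangements. Alternatives were other normalizations, DESeq2 1.42.0, limma-voom (3.58.1), other filters, robust = FALSE, a replicate block, leaving out each library, a fat score and cKO replicate 4 alone.

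The 10 genes and the other lists were chosen with earlier results of these data known. The rule named all 10 genes, *Ezh2*, other pathway genes with an adjusted p under 0.05, and the 3 nearest genes in pattern to each of the 2 Notch genes with the smallest p. Further pathway genes, the fat and stroma values of single libraries and the shares of receptors and ligands were chosen after values were seen. The 9 marker lists are endothelium, arterial endothelium, mural, smooth muscle, epithelium, stroma, fat, macrophage and Schwann cell. Promoters came from a RefSeq table of GRCm38.p6, and lengths from GENCODE vM21. All 28 library pairs differed by more than sampling noise (chi-square per gene 7.49 to 30.5). The labels give no batch.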

Additional observations from a re-analysis of the deposited data

Results flagged for a closer look

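In cKO uteri the summed level of the 7 stroma markers was 9858 CPM in replicate 4, far below the other cKO libraries, which lay between 12523 and 12622 CPM. The gap took up 0.964 of the range of the 4 libraries, over the 95% limit of Dixon's test. Of 52 groups of 4 libraries looked at, this was the only one over the limit, and chance gives about 1 in 20. None of the 10 Notch genes had such a library in either genotype.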

How the results depend on the processing

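For the 10 Notch genes, 174 of 190 fold changes under 19 alternatives kept their direction and their side of the threshold. The number of the 10 with an adjusted p under 0.05 was 1 in DESeq2, 1 with a replicate block and 0 to 2 without 1 library (2 without control replicate 2, *Jag2* and *Notch3*, and 1 without cKO replicate 4, *Jag2*). The log2 fold change of *Jag2* was then 0.35, 0.34, 0.40 and 0.41, and that of *Notch3* 0.44. With the fat score as a covariate, the log2 fold change turned to -0.087 in *Notch4*, -0.044 in *Jag1*, -0.13 in *Dll1*, -0.14 in *Dll4* and 0.074 in *Hes1*. With cKO replicate 4 alone, on which the fat score fit also largely rests, it turned to -0.086, -0.032, -0.17, -0.12 and 0.10 in the same genes. Without cKO replicate 2 that of *Hes1* was 0.00064, in a range of -0.13 to 0.00064 over the fits without 1 library. The other pathway genes called numbered 5 in DESeq2, 5 with the block, 2 to 6 without 1 library and 0 with cKO replicate 4 alone. Over all genes, 889 were called, against 1506 in DESeq2, 110 with the fat score, 35 with cKO replicate 4 alone and 393 to 1773 without 1 library. These fits without a library rest on fewer samples, and with 1 cKO library its spread is assumed to be that of the controls. The share of calls that were higher in cKO uteri was 49.2%, against 34.5% with the fat score and 31.4% with cKO replicate 4 alone.

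The replicate block is only a shared number. Same-numbered libraries correlated with -0.00354 to 0.194 in their deviations from the group means, not every library correlated best with its own number, and the block gave 1240 calls over all genes. With the mean log2 level in place of the sum, 1 of 9 marker lists, that of Schwann cells, passed the permutation test (exact permutation p = 0.0286), against 0. The *Notch3* ratio passed with the mean log2 of the mural list (chosen after seeing the data) and not with that of smooth muscle (0 passed). With coding lengths, chosen after seeing the data because the planned protein lengths were not used here, 6 of 10 genes kept their rank, and *Notch3* was the highest receptor in 4 libraries, against 8. For the other results the cause of a change was not tested.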
